A study of Homo sapiens with 9 samples.

Results

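The BEX (brain expressed X-linked) and TCEAL (transcription elongation factor A like) genes were described in Z138, an established mantle cell lymphoma line. The members were the 9 listed genes BEX2, BEX3, BEX4, BEX5, TCEAL1, TCEAL3, TCEAL4, TCEAL8 and TCEAL9, taken by symbol from a table of 16586 genes. Of these, 6 had a row: BEX2, BEX3, TCEAL1, TCEAL3, TCEAL4 and TCEAL8. BEX4, BEX5 and TCEAL9 had no row and were not analysed here, and the same holds for the 5 other genes of the families that were looked for, BEX1, TCEAL2, TCEAL5, TCEAL6 and TCEAL7. The members were chosen by the measured values of BEX3 in these 9 libraries, which were low in both edited states, together with its named relatives nearby. Whether those paralogs share the loss was the question. The values of BEX3 are therefore a description, with no test.

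The 9 RNA-seq libraries fall into 3 groups of 3: Z138 with the genotype WT, called wild type here; Z138 with the genotype SOX11KO, the knockout; and Z138 with the genotype SOX11KO+SOX11Rescue, the rescue, which carries the knockout and SOX11 given back. SOX11 is a transcription factor of neural development that is also made in most mantle cell lymphomas. The labels do not say whether the knockout or the rescue is 1 clone, which vector or promoter drives the returned SOX11, or whether replicates were separate cultures. The p-values therefore measure the spread between these libraries, which may be technical, and a difference between clones cannot be told apart from one due to SOX11.

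BEX and TCEAL genes encode small, highly charged and mostly unstructured proteins. They lie as a cluster on the long arm of the X chromosome that arose in placental mammals, are strongly expressed in brain, and several are silenced in tumours by promoter methylation. BEX3, also called NADE, binds the neurotrophin receptor p75 and takes part in cell death signalling. BEX2 has been placed in DNA-binding complexes around LMO2. TCEAL proteins are named for their likeness to the transcription elongation factor TFIIS, and TCEAL1 modulates transcription from some promoters.

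The 6 genes lie within 0.378 Mb of X chromosome. By GENCODE release 29 on GRCh38 their order is TCEAL8 (ENSG00000180964.17, chrX:103252995-103255203, minus strand), BEX2 (ENSG00000133134.11, chrX:103309346-103311046, minus strand), BEX3 (ENSG00000166681.14, chrX:103376340-103378077, plus strand), TCEAL4 (ENSG00000133142.17, chrX:103576231-103587736, plus strand), TCEAL3 (ENSG00000196507.11, chrX:103607451-103629690, plus strand) and TCEAL1 (ENSG00000172465.14, chrX:103628704-103630953, plus strand). TCEAL3 and TCEAL1 overlap on the same strand through 1 long TCEAL3 transcript. The genes also share stretches of sequence before their starts, which are shown because they are common to members that changed and to one that did not. Each line holds 30 bases read 5′ to 3′ on the gene's own strand, and the capitals mark the E-box CACGTG, a palindrome that many basic helix-loop-helix factors bind.
TCEAL8: ctcagtgatgacgcgactctCACGTGacca
BEX2: tctggcgatgacaacagccaCACGTGatcg
BEX3: cggtggtgacgcgcggccctCACGTGaccc
TCEAL4: aactcctgggctgcggcattCACGTGatct
TCEAL3: agctcgggtgacgcggcgctCACGTGaccc
TCEAL1: cggcagtgacgcgcgtccctCACGTGacca

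These sequences come from RefSeq promoters on GRCh38.p14, in which 6 of the 6 genes with a row were found, with 9 annotated starts between them. They stand at chrX:103255177-103255206 for TCEAL8, chrX:103311000-103311029 for BEX2, chrX:103376471-103376500 for BEX3, chrX:103585485-103585514 for TCEAL4, chrX:103607863-103607892 for TCEAL3 and chrX:103628899-103628928 for TCEAL1. The E-box began 10 bases before the RefSeq start in TCEAL4, 19 in BEX2, 31 in TCEAL8, 47 in BEX3, 56 in TCEAL1 and 80 in TCEAL3. GENCODE places some starts further upstream, so that 30 of the 30 bases shown for BEX3 and BEX2, 27 for TCEAL8 and 23 for TCEAL4 fall in an exon there. The 30 bases of TCEAL3 and of TCEAL1 fall in no exon but lie within an annotated transcript of the gene, downstream of its GENCODE start.

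Within the 250 bases before a start, CACGTG was present in 6 of the 6 genes and in 7.73% of the 27305 genes with a RefSeq promoter, each counted once if any of its starts held the motif. Counted by start, it was in 6 of 9 windows of the members and in 6.34% of all 35116. The longer form TCACGTGA was present in each gene but BEX2, and in 1.04% of all genes. CTCACGTGACC, on either strand like all motifs here, was present in BEX3, TCEAL1, TCEAL3 and TCEAL8 and in 0.179% of all genes. The same 4 genes held TGACGCG a few bases upstream of the E-box, a run present in 2.48% of all genes. These motifs were picked after the sequences were seen, and each longer form contains the shorter one. The motif ACAAAG, of the kind that SOX proteins bind, was present in a window of TCEAL1 and in none of the other 5 genes, against 16.3% of all genes. The same was true of the motif ACAATG, present in 11.22% of all genes. A match here describes letters and is not evidence of binding.

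The level of SOX11 checks the genotypes. Its mean normalized count was 3549 ± 474 (SD, n = 3) in wild type, 1033 ± 262 in knockout and 13127 ± 627 in rescue libraries, and no 2 groups overlapped. Normalized counts are counts divided by a library size factor, recovered from the deposited log2 values; 1 read was worth 0.858 to 1.13 of them, and libraries held an estimated 30800000 to 40800000 reads. The knockout was 1.32 lower than wild type on the deposited log2 scale (SE 0.107, adjusted p = 1.46e-05 by limma). The 8 B cell and mantle cell lymphoma markers summed to 162347 to 193447 normalized counts. Most of that was CCND1, the cyclin D1 gene of mantle cell lymphoma (128819 on average in wild type), and SOX11 is one of the 8. The B cell genes MS4A1, CD79A and PAX5 averaged 20715, 8978 and 10832 in wild type. Sums over 6 T and NK cell markers with a row were 364 to 497 in wild type, 592 to 695 in the knockout and 492 to 518 after rescue. Sums over 5 myeloid markers were 68.5 to 78.1, 122 to 158 and 98.5 to 131, and those over 4 stromal and epithelial markers were 951 to 1337, 1048 to 1353 and 771 to 967, in the same order. The 4 neural markers with a row summed to 345 to 792 in wild type, 254 to 368 in the knockout and 559 to 1064 after rescue, most of it MAP2. In no group was a marker with a row at 0 in all 3 libraries. The part of these markers in the results below was not tested. In bulk RNA fewer cells that express a gene and less RNA per cell cannot be told apart.

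In wild type the members stood at very different levels. Scaled to the longest annotated transcript, BEX3 held 1158 normalized counts per kb and TCEAL8 446. TCEAL1 held 56 per kb and TCEAL4 49.3, a difference within the spread between libraries. BEX2 held 14.9 per kb and TCEAL3 7.85 per kb. BEX3 and TCEAL8 were thus the abundant members, and BEX2 and TCEAL3 lay below the level at which genes were tested, a CPM (the usual depth-scaled count) that reached 1 in 3 or more libraries. Of the 6 members, 4 passed that filter. TCEAL1 and TCEAL4 passed it only through the 3 wild-type libraries, so any large difference they could show was a lower level in the other groups.

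BEX3 had 917.7, 1156 and 1126 normalized counts in the wild-type libraries (replicates 1, 2 and 3). The knockout libraries had 3.89, 5.29 and 3.75, and the rescue libraries 33, 55.4 and 55.6. The 3 groups did not overlap. Mean levels were 1067 ± 129.8, 4.31 ± 0.855 and 48 ± 13, so the knockout held 0.404% of the wild-type level and the rescue 4.5%. On an estimate of about 12 reads in the knockout libraries together, the transcript was close to the limit of detection there, and the rescue stood 11.14-fold above the knockout. None of the 50-base windows of BEX3 transcripts, the read length given in the labels, occurs in the transcripts of another gene. Sharing of counts through shorter or mismatched stretches was not tested.

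**Figure D1:**
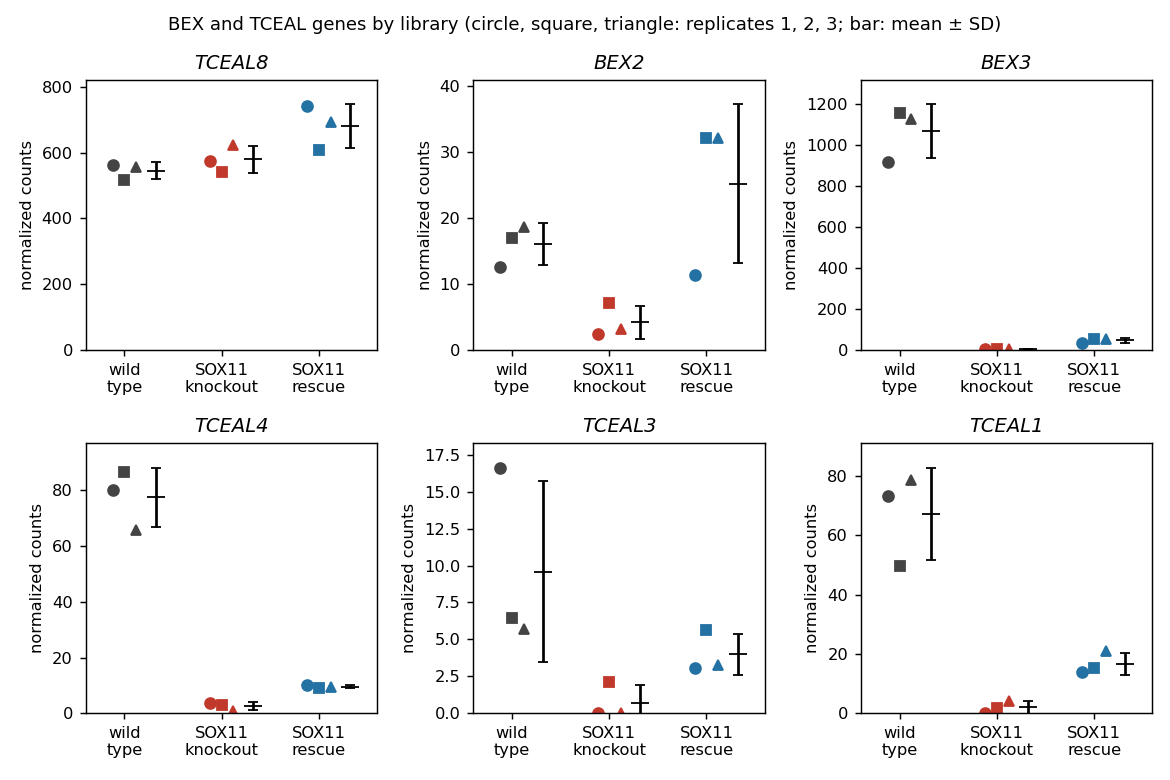
Normalized counts (linear axes from 0) of the 6 members in each of the 9 libraries, with panels in chromosomal order, symbols for replicates and bars for the mean ± SD of 3 libraries. BEX3, TCEAL4, TCEAL3 and TCEAL1 are highest in wild type and near 0 in the knockout, BEX2 is lowest in the knockout, and TCEAL8 lies between 516 and 740 in every library.

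Knockout and wild-type libraries were set against each other to see whether the paralogs follow BEX3. Of the 3 other members that passed the filter, TCEAL4 and TCEAL1 fell and TCEAL8 was not called. Since the filter fixed the direction of TCEAL4 and TCEAL1, that count is a description only; over all 11542 genes tested 7.37% were called lower and 5.36% higher. In a fit with no filter, which took in all 5 other members with a row, 3 fell (TCEAL4, TCEAL1 and TCEAL3) and none rose, where 5.23% of 16586 genes were called lower and 3.37% higher. TCEAL4 had 80.1, 86.6 and 65.7 normalized counts in wild type and 3.89, 2.87 and 0.937 in the knockout. No libraries overlapped, and the mean fell 30.2-fold. The difference on the deposited log2 scale was -0.53 (SE 0.0399, adjusted p = 6.17e-06 by limma with no filter). TCEAL1 had 73.3, 49.5 and 78.8 in wild type and 0, 1.96 and 4.22 in the knockout. Its mean fell 32.7-fold, again without overlap (log2 difference -0.51, SE 0.0504, adjusted p = 4.42e-05 by limma with no filter). Log2 differences on this scale are compressed for low genes, which is why they are smaller than the folds of the means. The lack of overlap already places both genes lower in the knockout in 3 of 3 batches. The fit with the filter called both too, and they kept that call in each of 20 alternatives to it. A filter at a CPM of at least 4 left both out. Apart from the fit with no filter, these alternatives used the filter that fixed the direction, so they add no separate support. With BEX2 and TCEAL3, 4 of the 5 other members with a row were lower in the knockout without overlap, as were 12.7% of all rows, and 12% were higher.

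TCEAL8, in contrast, had 564, 516 and 556 normalized counts in wild type against 574, 542 and 623 in the knockout, and the groups overlapped. The log2 difference was 0.05 with a 95% interval of -0.08 to 0.17 (adjusted p = 0.672 by limma), so a fall of the size seen in TCEAL4 or TCEAL1 lay outside the interval. TCEAL8 and BEX3 start 121 kb apart. No window of 50 bases in TCEAL8 is shared with another gene.

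The low members were tested only in the fit without the filter. BEX2 had 12.5, 17 and 18.6 normalized counts in wild type and 2.38, 7.07 and 3.15 in the knockout. The groups did not overlap, and the mean in the knockout was 26.2% of wild type, but the difference did not pass (log2 difference -0.15, SE 0.0497, adjusted p = 0.0989 by limma). With the replicate number as a block it passed (adjusted p = 0.0448), as it did without rescue replicate 1 (adjusted p = 0.0472). TCEAL3 had 16.6, 6.42 and 5.73 in wild type against 0, 2.11 and 0 in the knockout. The groups did not overlap and TCEAL3 fell (log2 difference -0.18, SE 0.0444, adjusted p = 0.0227). An estimated 31 reads in wild type stood against 2 in the knockout, a ratio of 14.7 with a 95% interval of 3.75 to 127 that covers counting error only. The call did not hold when wild-type replicate 1 was left out (adjusted p = 0.083), or replicate 1 or 3 of the knockout (0.0958 and 0.0885), and without all libraries of replicate 1 or 3 (0.288 and 0.155). Of the 50-base windows of TCEAL3 transcripts, 19.3% occur in other genes, chiefly TCEAL1, so the level of TCEAL3 is uncertain; the share was 14.4% for TCEAL1, all of it in TCEAL3, 2.38% for BEX2 and 1.13% for TCEAL4.

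Rescue libraries were set against wild type to see whether the loss is still present with SOX11 back. The SOX11 level was not that of wild type, since its rescue mean was 3.70-fold the wild-type mean. TCEAL4 and TCEAL1 were again lower and TCEAL8 was not called. Here too the filter fixed the direction of the first pair, so no count is read against the 1.78% of all genes tested called lower and 2.3% higher. In the fit with no filter 2 of the 5 other members were lower and none was higher, where 1.28% of genes were called lower and 1.65% higher. The comparison shares its wild-type libraries with the one above. TCEAL4 had 10.2, 8.96 and 9.53 normalized counts in the rescue, all below the lowest wild-type library. Its mean was 8.09-fold lower than wild type (log2 difference -0.41, SE 0.0399, adjusted p = 1.06e-04 by limma with no filter). TCEAL1 had 13.8, 15.1 and 21, also without overlap, and was 4.04-fold lower (log2 difference -0.30, SE 0.0504, adjusted p = 0.00695 by limma with no filter). With the filter kept, TCEAL1 lost its call without all libraries of replicate 1 or of replicate 3 (adjusted p = 0.11 and 0.118 by limma).

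Over all rows 8.83% were lower and 9.91% higher in the rescue without overlap. TCEAL8 stood higher in the rescue, at 740, 609 and 692, than in any wild-type library. The mean was 1.25-fold that of wild type and did not pass (log2 difference 0.17, 95% interval 0.04 to 0.29, adjusted p = 0.157 by limma). TCEAL3 had 3.1, 5.61 and 3.28 in the rescue, all below the wild-type libraries and 41.7% of their mean, and did not pass (adjusted p = 0.5 by limma, with no filter). BEX2 had 11.33, 32.1 and 32.1. Its rescue level overlapped wild type, with rescue replicate 1 below the lowest wild-type library and the other two above the highest (157% of the wild-type mean, adjusted p = 0.613). Replicate 1 was also the lowest of the rescue libraries for BEX3, TCEAL1 and TCEAL3, though not for TCEAL4 or TCEAL8.

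**Figure D2:**
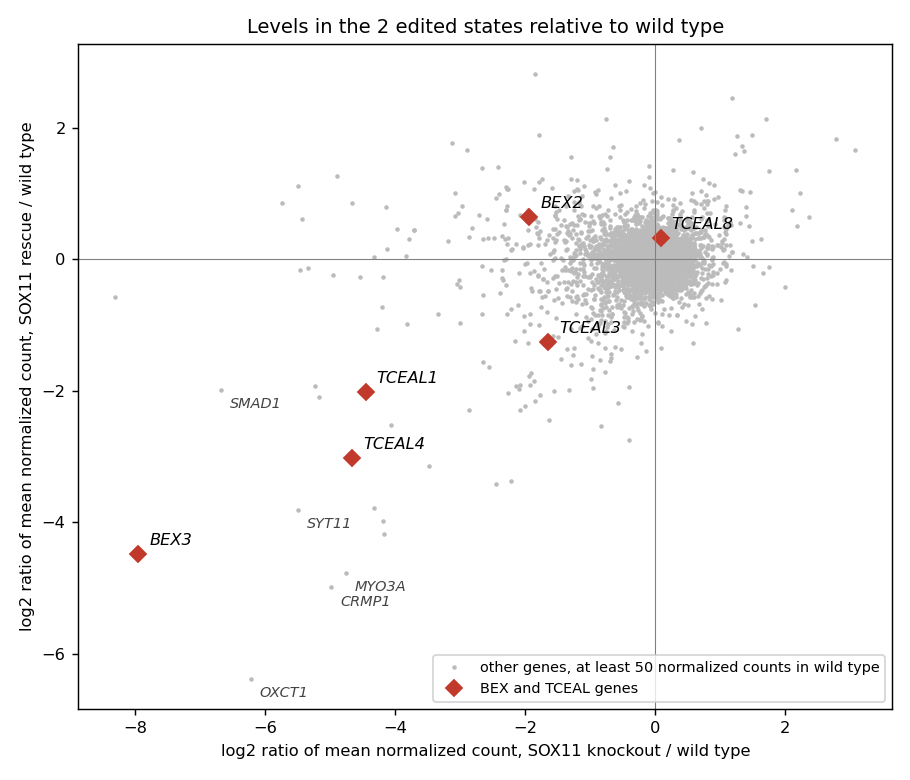
Log2 ratio of the mean normalized count in the knockout over wild type (x axis) and in the rescue over wild type (y axis) for the members and for other genes with at least 50 normalized counts in wild type; group means under 3 reads per library were set to that floor. BEX3 lies at -7.95 and -4.47, TCEAL4 and TCEAL1 lie low on both axes too, nearer the centre, BEX2 is low in the knockout only, and TCEAL8 lies near 0 on both axes.

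The rescue was also compared with the knockout, whose libraries it shares with the first comparison. TCEAL1 rose (log2 difference 0.21, SE 0.0523, adjusted p = 0.0138 by limma), from a mean of 2.06 ± 2.11 to 16.6 ± 3.79, and was the 1 of 3 other members called, against 11.5% of all genes tested called higher and 10.7% lower. That call was lost without knockout replicate 1 (adjusted p = 0.0618) or rescue replicate 3 (adjusted p = 0.0563), and without all libraries of replicate 1 or 3 (adjusted p = 0.11 and 0.0725). TCEAL4 averaged 2.57 ± 1.5 in the knockout and 9.57 ± 0.63 in the rescue. These groups did not overlap, yet the difference did not pass (log2 difference 0.11, 95% interval 0.02 to 0.20, adjusted p = 0.0745).

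Without overlap between groups, 17.6% of all rows were higher and 16.6% lower. In the fit without the filter, where 8.4% of genes were called higher and 6.76% lower, BEX2 rose from 4.2 ± 2.52 to 25.2 ± 12 (log2 difference 0.21, SE 0.0497, adjusted p = 0.0127 by limma). The call was lost without knockout replicate 1 (adjusted p = 0.0543), rescue replicate 2 (0.0556) or rescue replicate 3 (0.0588), and without all libraries of replicate 2 or 3 (0.0656 and 0.191). TCEAL3 averaged 0.703 ± 1.22 and 4 ± 1.4 and did not pass (adjusted p = 0.128). TCEAL8 averaged 580 ± 40.5 and 680 ± 66.6, with overlapping libraries (log2 difference 0.12, 95% interval -0.00271 to 0.248, adjusted p = 0.154). As a share of wild type the rescue means ran from 4.5% for BEX3 through 12.4% for TCEAL4, 24.8% for TCEAL1 and 41.7% for TCEAL3 to 125% for TCEAL8 and 157% for BEX2.

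To see whether the change runs along the chromosome, the other genes of the table whose annotated start lies within 1 Mb of that of BEX3 were read from the same fit. There were 16, of which 13 were tested. In the knockout 3 fell and none rose, in the rescue against wild type 1 rose and none fell, and in the rescue against the knockout 6 rose and 1 fell. Over all genes tested 7.37% fell and 5.36% rose in the knockout, 1.78% and 2.3% in the rescue against wild type, and 10.7% and 11.5% in the rescue against the knockout. Of the 6 neighbours that rose in the rescue against the knockout, H2BW2 and H2BW3P had no knockout library at the level of the filter. Their wild-type libraries alone did not pass it, so they were tested only through the rescue libraries. Any large difference they could show from the knockout was a rise, and the count of 6 is a description only. Under the alternative settings the number of neighbours called ranged from 1 to 3, 0 to 1 and 2 to 7, in the same order. Their median log2 differences were -0.08, 0.04 and 0.14, where those of all genes tested were 0.00482, -3.17e-05 and -0.00646.

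The nearest neighbours of the lower members were not called against wild type. RAB40A, a small GTPase gene that lies between BEX3 and TCEAL4, averaged 60.9 ± 5.92 in wild type, 49.7 ± 9.32 in knockout and 66 ± 8.08 in rescue libraries. It was called in none of the 3 comparisons (adjusted p = 0.473, 0.863 and 0.243 for the knockout and the rescue against wild type and the rescue against the knockout, by limma). Its knockout libraries (38.9, 55.5 and 54.6) still lay below those of wild type (67.6, 56.4 and 58.8) without overlap, as did 12.7% of all rows. The rescue libraries lay above the knockout without overlap, as did 17.6% of all rows. MORF4L2, a subunit of histone acetyltransferase complexes that starts 312 kb from BEX3, beyond TCEAL1, had 6554 ± 395, 7027 ± 239 and 6028 ± 517. It was called only in the rescue against the knockout, where it was lower (adjusted p = 0.0427), a call lost when wild-type replicate 1, any knockout replicate, rescue replicate 2 or 3, or any replicate number was left out (adjusted p = 0.0534 to 0.239).

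TMSB15A, a thymosin that binds actin monomers, was the neighbour with the largest change. It starts 859.6 kb from BEX3 on the far side of TCEAL8. Wild-type libraries held 223, 195 and 209 normalized counts, knockout libraries 5.3, 4.2 and 2.26, and rescue libraries 386, 372 and 379, without overlap. It fell 53.3-fold in the knockout (log2 difference -0.89, SE 0.0437, adjusted p = 5.15e-07 by limma), and in the rescue stood above wild type (log2 difference 0.34, adjusted p = 0.00114; adjusted p = 0.0672 without all libraries of replicate 3). Its rescue level therefore lay on the other side of wild type from that of BEX3. ARMCX5, BHLHB9 and GPRASP2, which lie between TMSB15A and TCEAL8, were called in neither comparison with wild type. GPRASP2 was lower than wild type in the knockout and higher in the rescue without overlap, as were 12.7% and 9.91% of all rows. ARMCX5 and BHLHB9 overlapped wild type in both.

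RAB9B, a GTPase of endosome to Golgi transport that starts 456 kb from BEX3, averaged 68.4 ± 23.2, 22.2 ± 9.41 and 88.8 ± 21.6 (adjusted p = 0.0215 in the knockout and 0.00295 in the rescue against the knockout, by limma). TMSB15B, a paralog of TMSB15A, averaged 326 ± 17.4, 226 ± 45.2 and 342 ± 12.7 (adjusted p = 0.0356 and 0.0125). Each of these knockout calls depended on single libraries: RAB9B lost it without replicate 1 of wild type (adjusted p = 0.0761) or replicate 1 or 2 of the knockout (0.0803 and 0.0735), and TMSB15B without any wild-type replicate (0.0601 to 0.0813), without knockout replicate 1 or 2 (0.141 and 0.112) or rescue replicate 1 or 3 (0.0505 and 0.0546), and both without all libraries of any 1 replicate number (0.061 to 0.169 and 0.0703 to 0.246). The knockout call of TMSB15B was also lost with only the 2 groups compared (0.0739) and with quantile normalization (0.0587). TMSB15B also lost its rescue against knockout call without knockout replicate 1 (0.0587) and without all libraries of replicate 1 or 2 (0.151 and 0.0601). Of the windows of TMSB15B 22% occur in other annotated gene entries, and 10.6% occur in another entry that is also named TMSB15B. For TMSB15A the share was 7.7%, all in TMSB15B.

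**Figure D3:**
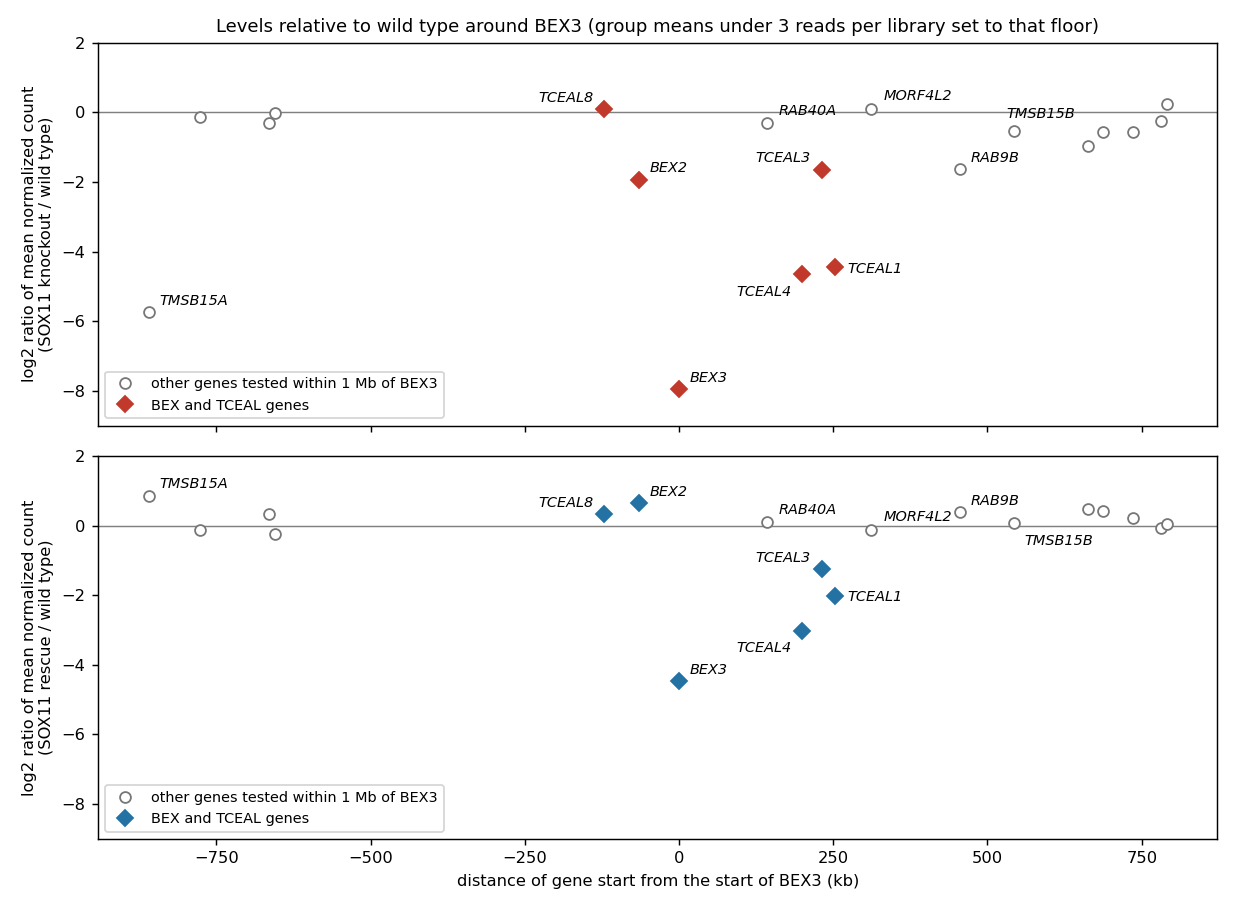
Log2 ratio of the mean normalized count over wild type in the knockout (top) and the rescue (bottom) against the distance in kb of each gene's annotated start from that of BEX3, read on the gene's own strand, for members (filled) and other tested genes within 1 Mb (open); group means under 3 reads per library were set to that floor. In the knockout BEX3, TCEAL4, TCEAL1 and the distant TMSB15A lie below -4 with other genes nearer 0 between them, and in the rescue BEX3, TCEAL4, TCEAL1 and TCEAL3 are the 4 points below -1.

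The wider gene group was taken from lists of related genes. The ARMCX and GPRASP list holds genes of the X chromosome and their relative ARMC10, on chromosome 7. Of 6 tested, 5 of them on X, none was called against wild type in either edited state (median log2 differences -0.04 and -0.03, and -0.07 and -0.04 over the 5), where 12.7% and 4.07% of all genes tested were called in either direction. By limma 0 of the 6 had an unadjusted p under 0.05 in either comparison. GPRASP2 alone rose in the rescue against the knockout, where 22.1% of all genes tested were called in either direction (66.6 ± 9.84 and 103.8 ± 13.8, adjusted p = 0.0415), a call lost in 15 of 20 alternatives among them without replicate 1 or 3 of wild type, any knockout replicate, rescue replicate 2 or 3, or any replicate number (adjusted p = 0.0505 to 0.351).

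The proteins for which the TCEAL genes are named were listed with other elongation factors. Of 17 tested, 1 fell and none rose in the knockout, 1 fell and none rose in the rescue against wild type, and 3 fell and none rose in the rescue against the knockout (median log2 differences 0.01, -0.08 and -0.06). Over all genes tested 7.37%, 1.78% and 10.7% fell. The gene called in each was TCEA3, a tissue-restricted form of TFIIS. Wild-type libraries held 239.7, 292 and 328 normalized counts, knockout libraries 56.7, 57.7 and 71.7, and rescue libraries 35.1, 21.1 and 27.1, without overlap. TCEA3 fell 4.62-fold in the knockout (log2 difference -0.63, SE 0.0545, adjusted p = 2.15e-05 by limma), and the rescue was lower still (adjusted p = 0.0284 against the knockout). The last call was lost without any knockout replicate, rescue replicate 2 or 3, or any replicate number (adjusted p = 0.0553 to 0.18). Its rescue level thus moved the other way from those of BEX3 and TCEAL1. The widely expressed form TCEA1 averaged 8414 in wild type, 8456 in knockout and 7671 in rescue libraries, and was not called (adjusted p = 0.952, 0.232 and 0.0818, in the order used for RAB40A).

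Among 30 genes of p75 signalling around BEX3, 20 were tested. In the knockout 3 fell and none rose, in the rescue against wild type 1 rose and none fell, and in the rescue against the knockout 5 rose and 1 fell (median log2 differences -0.07, 0.01 and 0.07). Over all genes tested 12.7%, 4.07% and 22.1% were called in either direction, against 3, 1 and 6 of these 20. NGFR, which encodes p75 itself, had at most 4.87 normalized counts in any library and was not tested. SORT1, the co-receptor sortilin, averaged 3491 in wild type, 2904 in knockout and 5420 in rescue libraries (adjusted p = 0.0402, 4.38e-04 and 8.52e-06 by limma, in the same order). The call of SORT1 in the knockout did not hold without knockout replicate 2 or 3, replicate 1 or 3 of wild type, any rescue replicate, or all libraries of replicate 1 or 3 (adjusted p = 0.0556 to 0.307). The kinase gene MAPK8 fell 1.31-fold in the knockout (adjusted p = 0.00989, and 0.107 or 0.0995 without all libraries of replicate 1 or 3) and rose 1.52-fold in the rescue against it (adjusted p = 3.21e-04). MAGED1, which like BEX3 binds p75, averaged 4906, 4808 and 4841 and was not called.

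Genes whose levels were most like those of BEX3 were ranked by the Euclidean distance between pairs of log2 ratios (knockout and rescue over wild type, group means of 3 libraries), among 10619 tested protein-coding genes with at least 50 normalized counts in wild type. The 5 nearest were SYT11, a synaptotagmin (distance 2.54), OXCT1, an enzyme of ketone body use (2.57), SMAD1, a BMP signal transducer (2.8), CRMP1, a neuronal collapsin response mediator (3.01), and the myosin MYO3A (3.21). SYT11 averaged 139 ± 11 normalized counts in wild type, 2.43 ± 0.868 in knockout and 9.89 ± 3.64 in rescue libraries. None of the 5 lies on the X chromosome. TCEAL4 came next at rank 6 (distance 3.6), TCEAL1 at rank 13 (distance 4.28), and TCEAL8 at rank 9343 (distance 9.36). Because wild-type level limits how far a ratio can fall before it meets the floor, distances of low genes such as TCEAL1 and TCEAL4 are larger than those of abundant genes lost to the same share.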

How the data were processed

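RNA-seq was made from 9 libraries of Z138. Per the labels' protocols, 1 of 2 TruSeq kits was used for each library, only one of them stranded, with 50-base reads from one or both ends. The labels do not say which library had which. FastQC 0.11.9, Trimmomatic 0.40, kallisto 0.46.1, R 4.3.2, DESeq2 1.24.0 and the build GRCh38.p13 are named in the submitters' processing notes, without their roles. The authors deposited 1 table of log2 values for 16586 genes. They are named log CPM, but the lowest value is 8.598 in 9 of 9 libraries, as on a variance-stabilized scale.

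The closed form of that transform was inverted with the constant 388 to give normalized counts. Among genes with 1 annotated transcript, 83.1% to 98.5% of low values lay within 0.05 of a whole multiple of 1 step per library. That step was taken as 1 read. It was chosen as the step with the largest such share. A step fixed in advance would give 10% by chance, which is not the chance level for a chosen one. The 11542 genes whose CPM reached 1 in 3 or more libraries were tested, and 5044 were not. The deposited log2 values were fitted in limma 3.58.1 (R 4.3.3), with group means and a prior variance that follows the mean level. P-values carry the Benjamini-Hochberg adjustment over all genes tested, and 0.05 was the threshold. Positions come from GENCODE 29, which matched 16461 genes.

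The members and lists were chosen with earlier results of these data known. Named were SOX11, the members, called neighbours of BEX3, up to 4 genes of a list by smallest adjusted p, those its background names, and the 5 genes nearest to BEX3; other names were chosen after their values were seen. The labels give each library a batch equal to its replicate number, which pairs the libraries. Libraries with 1 number deviated together from their group means (correlations 0.187 to 0.51), and 9 of 9 libraries matched their own number best. Alternatives were the replicate block, other filters (none, or a CPM of at least 4), log2(CPM + 1) and log2(CPM + 0.1), median centring, quantile normalization, only the groups compared, a constant prior variance, and each library or batch left out. Figures were drawn with matplotlib 3.10.9.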

Additional observations from a re-analysis of the deposited data

How the results depend on the processing

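SOX11 kept its direction and call in the knockout in 21 of 21 alternatives (log2 difference -1.80 to -1.23). Of the 3 other members tested, the 2 called in the knockout and the 2 called in the rescue against wild type became 0 under the stricter filter, since only TCEAL8 passes it. Leaving out libraries gave 2 calls in each case in the knockout and 1 to 2 in the rescue against wild type. For the rescue against the knockout the 1 call became 2 without the filter, which adds BEX2, 0 under the stricter filter, 0 on log2(CPM + 1), 2 on log2(CPM + 0.1) and 0 with quantile normalization, and 0 to 1 when libraries were left out. TCEAL4 changed sign under quantile normalization in that comparison (log2 difference -0.0437), where the cause was not tested. The replicate block changed the call of BEX2 in the knockout, given above, and of no other member; it raised the calls over all genes tested from 1470 to 2481 in the knockout, from 470 to 930 in the rescue against wild type, and from 2556 to 3601 between rescue and knockout. Left-out libraries lowered these counts to as few as 574, 111 and 993. Counts of called genes in the lists ranged, over the alternatives, from 0 to 5 in the knockout, 0 to 2 in the rescue against wild type and 0 to 8 between rescue and knockout. Depth limits TCEAL3, TCEAL1, TCEAL4 and BEX2, which had an estimated 2 to 13 reads over the 3 knockout libraries together.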

Other observations

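Proteins tied to BEX genes by earlier work, such as LMO2 partners and tubulins, were listed as well, and of 16 genes 11 were tested. In the knockout 3 fell and 1 rose, in the rescue against wild type 1 rose, and in the rescue against the knockout 2 rose and 1 fell (median log2 differences -0.12, 0.07 and 0.10). Over all genes tested 12.7%, 4.07% and 22.1% were called in either direction. LDB1, the LIM domain binding protein, averaged 2912 normalized counts in wild type, 2299 in knockout and 3265 in rescue libraries (adjusted p = 0.0199, 0.339 and 0.00114 by limma for the knockout and the rescue against wild type and the rescue against the knockout). The alpha tubulin TUBA1A averaged 16130 in wild type, 6817 in knockout and 23087 in rescue libraries, and its paralogs can share reads. LDB1 lost its call in the knockout without knockout replicate 2, replicate 1 or 3 of wild type, or all libraries of replicate 1 or 3 (adjusted p = 0.0624 to 0.174). TUBA1A lost its call in the rescue against wild type without all libraries of replicate 3 (adjusted p = 0.102).

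Other small families, X-linked or of the MAGE type, were listed beside the BEX and TCEAL genes. Of 22 genes 9 were tested, and 1 fell in the knockout, 0 were called in the rescue against wild type by limma (1 at an unadjusted p under 0.05), and 3 rose in the rescue against the knockout (median log2 differences -0.09, 0.00 and 0.13). Over all genes tested the shares called were 12.7%, 4.07% and 22.1%. The gene that fell was RTL5, of the retrotransposon Gag-like family, with 301, 171 and 220 normalized counts in wild type, 106, 94.8 and 81.2 in knockout and 256, 178 and 182 in rescue libraries. RTL8C and MAGEF1 rose in the rescue against the knockout, from 153 to 247 and from 1225 to 1645. Without all libraries of replicate 3, RTL5 lost its calls in the knockout (adjusted p = 0.117) and between rescue and knockout (0.121), RTL8C lost its own (0.0625; 0.0777 without replicate 1), and so did MAGEF1 (0.0599 and 0.0519).

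Across BEX3 and the 10619 genes ranked by their likeness to it, 38 held under 10% of their wild-type mean in the knockout, BEX3 among them. Of those, 15 also held under 30% in the rescue. BEX3, TCEAL4 and TCEAL1 are 3 of the 15, and the other 12 lie on other chromosomes. Both limits were set after the values were seen, so these counts are a description.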
